A study of Mus musculus with 26 samples.

Results

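Lineage genes of mesoderm and endoderm, 9 of the 53978 genes in one table and of the 50969 genes in another, were followed through the formation of primordial germ cell-like cells (PGCLCs) at lowered and raised levels of Tex10. The genes were chosen by name: Eomes, Mixl1 and Gsc for the primitive streak, Mesp1, Hand1 and Kdr for mesoderm, and Foxa2, Sox17 and Gata6 for endoderm. The values came from 22 of the 26 RNA-seq libraries of the series. In the first experiment, cells of strain 129Sv/J were sampled untreated as epiblast-like cells (EpiLCs), the starting cells of the induction, and as PGCLCs at day 2 and day 4 with the solvent DMSO or with 500 nM dTAG13, in 2 libraries per group (10 in all). dTAG13 is a small molecule that brings a tagged protein, here Tex10, to the degradation machinery. In the second, 1 empty-vector line and 2 Tex10 overexpression clones, untreated and of the same strain, were each taken before induction, as EpiLCs, and at days 2, 4 and 6 of it, in 12 libraries. Each clone stood for itself, and each stage had 1 empty-vector library. How the Tex10 tag was placed and how many clones carry it are not given in the sources used here. EpiLCs of the first experiment had no solvent, so their comparison with day 2 also differs by DMSO.

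The streak is the site where epiblast cells take up mesoderm and endoderm fates. BMP, WNT and NODAL signals switch on T-box factors such as Eomes and T, and these act upstream of Mesp1, Mixl1 and the endoderm factors Foxa2 and Sox17. Germ cell precursors arise beside this region from the same epiblast, and in culture they are induced from EpiLCs with BMP4. Levels below are deposited values in CPM over a library size scaled by TMM, a correction for library composition, and reads are the whole counts they correspond to. The libraries held between 5055362 and 8564563 reads in the dTAG13 table and between 5227287 and 7484600 in the overexpression table, so 3 reads stood at 0.299 to 0.477 CPM and at 0.412 to 0.560 CPM. Counting error alone was wide near that floor. In EpiLC replicate 1 of the dTAG13 table, 3 reads (Gsc) had a 95% Poisson interval of 0.078 to 1.11 CPM. In the same library 0 reads (Mesp1) had an interval of 0 to 0.468 CPM, so such low counts could not be told apart.

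The labels were checked first. Tex10 RNA differed from DMSO by -0.14 on log2 at day 2 (limma, adjusted p = 0.322) and was lower at day 4 (-0.51, adjusted p = 0.000576), but a degrader acts on the protein, which RNA does not measure. In the overexpression lines Tex10 was higher than in the empty vector in all 8 clone libraries, by 1.47 on log2 over the stages (adjusted p = 2.14e-11). All 7 measured markers of formative epiblast, the EpiLC identity, fell from EpiLCs to day 2 DMSO (summed level 2164 to 2499 CPM, then 288 to 334), and 6 of 10 germ cell markers rose (119 to 128 CPM, then 356 to 417). Of all 16605 genes tested in that comparison, 1902 were called higher and 2445 lower. The day 4 DMSO pair stood apart: its chi-square per gene was 15.07 against at most 5.23 in the other pairs, and replicate 2 had 28687 genes with reads against 23893 in replicate 1. Reads of that replicate 2 could also not be told from rounded values and are printed on the same footing as the others. The labels do not say whether libraries of a group came from separate cultures, so p-values measure the spread between these libraries, which may be technical. In bulk RNA, fewer cells of a type and less RNA per cell cannot be told apart.

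Most of the 9 members, 6 in all, were close to the floor in most libraries. A gene was tested where its mean over the table was at least 1 CPM, and Eomes, Hand1 and Gata6 passed in each table (3 of 9, with 6 not passing). Gata6 passed in the dTAG13 table through its dTAG13 libraries, as its EpiLC and DMSO levels were all between 0 and 1.09 CPM. Hand1 and Gata6 passed in the overexpression table through day 4 and day 6. Each was therefore bound to vary across its table, and the number of members that passed says nothing by itself. The heat map of reads shows both the 3 measured genes and the sparse remainder.

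**Figure D1:**
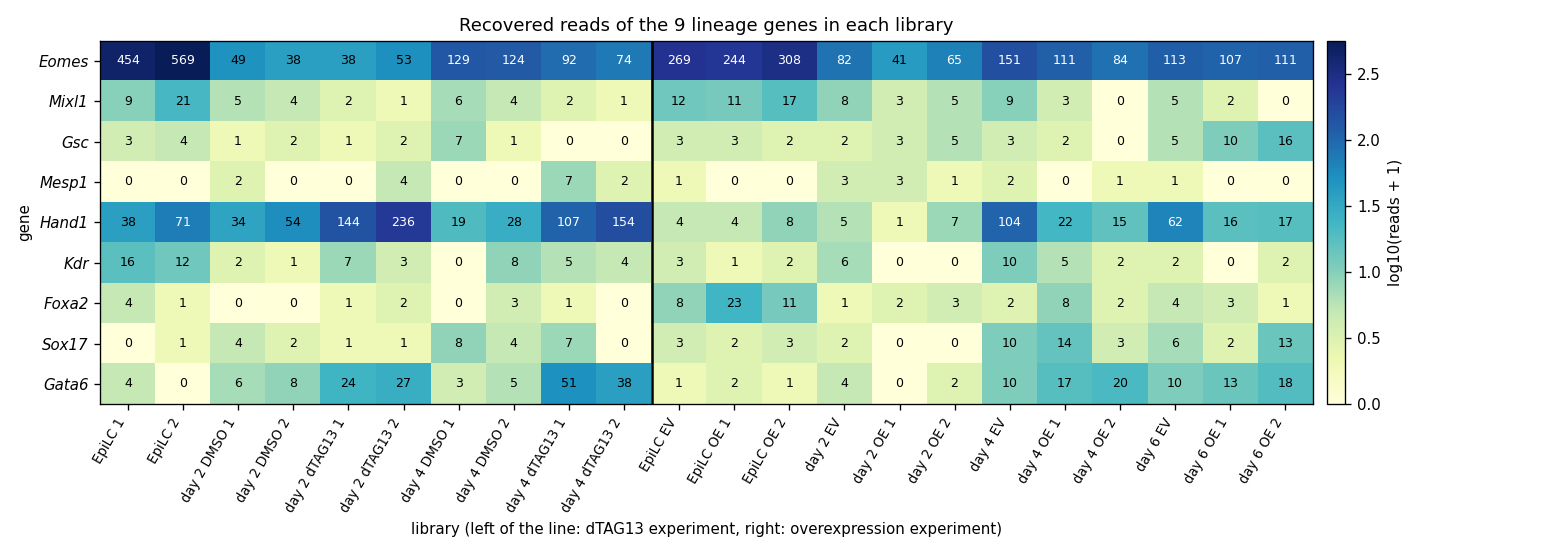
Whole reads of the 9 members (rows) in each of the 22 libraries (columns, grouped by table, stage and treatment), with the count printed in each cell and colour following it. Eomes was counted in every library, Hand1 and Gata6 passed 20 reads only in some groups, and Mixl1, Gsc, Mesp1, Kdr, Foxa2 and Sox17 stayed at 23 reads or fewer.

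Eomes, a T-box factor needed for the onset of mesoderm and definitive endoderm, was highest before induction. In untreated EpiLCs it was at 57.5 and 63.0 CPM (454 and 569 reads), and in day 2 DMSO cells at 6.16 and 5.16 CPM (49 and 38 reads). EpiLCs were 10.7 times higher on the linear scale, and the difference was -3.20 on log2(value + 1) with an SE of 0.198 (limma, adjusted p = 9.25e-11). In this comparison 14.7% of tested genes were called lower. By day 4 DMSO, Eomes was at 13.9 and 12.3 CPM (129 and 124 reads), above both day 2 libraries. That rise of 1.08 was called (limma, adjusted p = 0.00134), against 2.44% of genes called higher.

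Eomes did not differ detectably with dTAG13. At day 2 it was at 5.91 and 7.09 CPM in dTAG13 libraries (38 and 53 reads), a range that overlapped DMSO, and the log2 difference was 0.17 with an SE of 0.198 (limma, adjusted p = 0.544). At day 4 it was at 13.5 and 11.8 CPM (92 and 74 reads), again overlapping DMSO. The day 4 difference was -0.05 (limma, adjusted p = 0.866), and it took the other sign, 0.07, under median-ratio scaling. From day 2 to day 4 with dTAG13 it rose by 0.86 (limma, adjusted p = 0.00924), while 3.44% of genes were called higher. That call was lost without replicate 1 of day 2 dTAG13 (0.75, adjusted p = 0.0881) and without replicate 1 of day 4 dTAG13 (0.77, adjusted p = 0.0832).

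The same course was measured in the vector lines. EpiLC levels of Eomes were 40.4 CPM in the empty vector and 36.4 and 42.3 in the clones (269, 244 and 308 reads), and day 2 levels 11.8, 6.32 and 9.84 (82, 41 and 65 reads). Every line fell (-2.02 on log2, SE 0.170, limma with line as a block, adjusted p = 5.82e-11), in a comparison that called 22.1% of genes lower. Day 4 levels were 23.1, 18.5 and 15.7 CPM (151, 111 and 84 reads), and all 3 lines rose, by 0.99 (limma, adjusted p = 7.59e-05), with 11.1% of genes called higher. Day 6 levels were 17.0, 17.4 and 16.2 CPM (113, 107 and 111 reads), and the step from day 4 was -0.16 (limma, adjusted p = 0.672), where 6.88% of genes were called in either direction. The 2 tables were normalized separately and made with different kits, so levels were not tested across them.

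Eomes lies at chr9:118478212-118486132 on the + strand of GRCm38. Its upstream sequence is shown because Eomes fell from EpiLCs to day 2 in both tables and its window holds the rarest of the motifs searched. The 250 bases before its start (RefSeq, GRCm38.p6, chr9:118477939-118478188, + strand) are printed with the match to the palindrome of paired-type homeodomain factors, TAAT followed after any 3 bases by ATTA, in capitals.
Eomes upstream: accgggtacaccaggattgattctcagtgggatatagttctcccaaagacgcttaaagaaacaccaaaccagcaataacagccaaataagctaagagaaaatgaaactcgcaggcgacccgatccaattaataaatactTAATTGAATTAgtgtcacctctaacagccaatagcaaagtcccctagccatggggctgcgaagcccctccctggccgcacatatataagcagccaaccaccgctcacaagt
The match was found on both strands, as the motif is its own reverse complement, and its first base lay at -111 from the start. Of 32851 promoters of this length, 0.463% hold such a match. Other motifs were searched on both strands and not found in this window. They were the site of T-box factors, TCACAC, the core bound by FOXH1, AATNNACA, and the site of SMAD proteins, CAGACA. The site of TCF/LEF factors, CTTTGA, the E-box of helix-loop-helix factors, CANNTG, the site of GATA factors, AGATAA, and the core of forkhead factors, TGTTTAC, were searched as well. CTTTGA was matched at 2 places before Mesp1, and 13.8% of promoters hold at least 1 match. AGATAA was matched before start 3 of Foxa2 (9.99% of promoters), and CANNTG before Gsc, Mesp1, the same Foxa2 start and Kdr (66.2%). A match is a description and not a binding site. Promoters of 5 of the 9 members were in the table (Eomes, Gsc, Mesp1, Foxa2 and Kdr). Counting was not stated to use strand, and the antisense gene Gm33460 overlaps Eomes at 0 to 1.91 CPM, so reads of the pair cannot be told apart. The same holds for Gata6 and its antisense gene 1010001N08Rik, whose values were not used here.

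Hand1 was the only member that passed both with dTAG13 on each day and with Tex10 overexpressed. The overexpression call held in 6 of 13 alternatives, given below. Hand1 encodes a basic helix-loop-helix factor of lateral and extraembryonic mesoderm and heart, and it is also used in trophoblast giant cells. At day 2 it was at 4.28 and 7.33 CPM with DMSO (34 and 54 reads) and at 22.4 and 31.6 CPM with dTAG13 (144 and 236 reads). Both dTAG13 libraries were above both DMSO libraries, 4.65 times on the linear scale, and the difference was 2.06 on log2 with an SE of 0.286 (limma, adjusted p = 9.51e-06). At day 4 it was at 2.04 and 2.79 CPM with DMSO (19 and 28 reads) and at 15.7 and 24.5 CPM with dTAG13 (107 and 154 reads). The groups were again apart, by 8.32 times, or 2.60 on log2 with an SE of 0.286 (limma, adjusted p = 2.15e-07). Without day 4 DMSO replicate 1 or 2 it was 2.44 or 2.76 (adjusted p = 5.13e-06 and 9.71e-07).

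These calls stand in comparisons with many others. At day 2, 33.6% of 16605 genes were called, 13.7% higher and 19.9% lower, and dTAG13 libraries lay wholly above DMSO for 27.6% of genes. At day 4, 41.8% were called, 15.8% higher and 26.0% lower, and dTAG13 lay wholly above for 26.8%. The median log2 difference of all tested genes was -0.09 at day 2 and -0.13 at day 4, and median-ratio scaling moved the day 4 median to -0.02. Under that scaling the split of calls went from 2269 higher and 3308 lower to 2799 and 2445 at day 2, and from 2625 and 4320 to 3245 and 3222 at day 4. Hand1 and Gata6 kept their direction and their call on both days in every setting in which they were tested. Gata6 was not tested with a mean of at least 5. Settings that keep the filter admit Gata6 through its dTAG13 libraries, so its difference is read below with no filter.

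Gata6, a zinc-finger factor of primitive endoderm and of cardiac mesoderm, had 8 reads or fewer in each EpiLC and DMSO library, 4 and 0 of them in EpiLCs. At day 2 it was at 0.75 and 1.09 CPM with DMSO (6 and 8 reads) and at 3.73 and 3.61 CPM with dTAG13 (24 and 27 reads). The dTAG13 libraries were both higher, 3.99 times on the linear scale, and the difference was 1.29 on log2 with an SE of 0.337. Since Gata6 passed the filter through dTAG13 libraries, its difference was tested by limma with no filter (adjusted p = 0.0333), where 11.8% of genes were called. At day 4 it was at 0.32 and 0.50 CPM with DMSO (3 and 5 reads) and at 7.48 and 6.04 CPM with dTAG13 (51 and 38 reads). The groups did not overlap, and the difference was 2.46 with an SE of 0.337 (limma with no filter, adjusted p = 0.000664), with 16.3% of genes called. Without day 4 DMSO replicate 1 or 2 it was 2.37 or 2.55. The added 1 CPM understates the change of a gene this low, and edgeR on reads without a filter gave 4.05 (adjusted p = 9.85e-12).

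**Figure D2:**
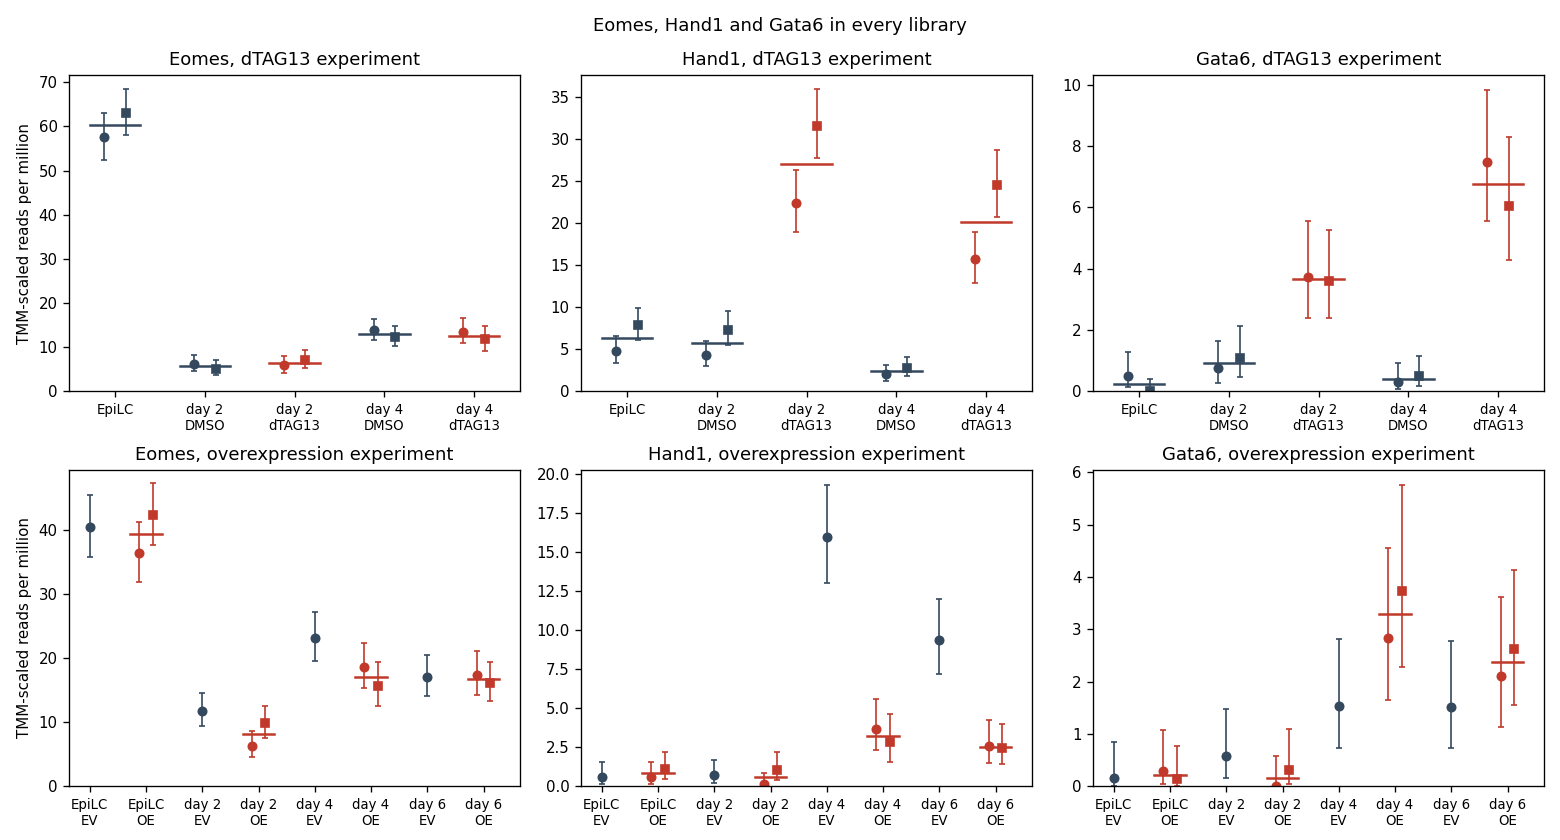
Levels of Eomes, Hand1 and Gata6 in CPM in each library, with 95% Poisson intervals of the read counts (counting error only) as bars and the group mean as a line. Hand1 with dTAG13 sits between 15.7 and 31.6 CPM against 2.04 to 7.33 with DMSO, while the ranges of Eomes overlap.

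The dTAG13 difference was larger at day 4 than at day 2 for both genes in value, by 1.17 for Gata6 and 0.55 for Hand1, but neither change passed (limma, adjusted p = 0.263 and 0.644). Eomes gave -0.22 (adjusted p = 0.819). No member was called for this difference, in which 1.25% of all genes were, and edgeR on reads without a filter called none either. The 6 scarce members differed between the days by -0.49 (Gsc) to 0.56 (Mesp1) in limma with no filter, which called none of the 9. Gata6 entered the filtered limma fit through its dTAG13 libraries, so no pass is read from that fit. At an unadjusted p under 0.05, limma with no filter passed Gata6 alone of the 9 members. edgeR on reads without a filter passed Gata6 and Hand1 at that level.

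The course of Hand1 in time was read within each table. With DMSO it went from 4.82 and 7.87 CPM in EpiLCs (38 and 71 reads) to the day 2 levels above with a difference of -0.12 (limma, adjusted p = 0.809). From day 2 to day 4 DMSO the difference was -0.97 with an SE of 0.286 (limma, adjusted p = 0.0507), where 3.08% of genes were called lower. It passed in 7 of 14 settings, among them the fit with a replicate block (adjusted p = 0.0125). Across the vector lines (empty vector, clone 1, clone 2) it was near the floor in EpiLCs (4, 4 and 8 reads) and at day 2 (5, 1 and 7 reads). At day 4 it had 104, 22 and 15 reads. The mean step over these unlike lines was 2.07, and 1.45 without the empty vector. As Hand1 passed the filter through day 4 and day 6, the step of 2.07 was read from limma with no filter (adjusted p = 0.0104), where 8.75% of genes were called. Whether the courses differ was not tested, and kit, line and solvent differ with the table.

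From EpiLCs to day 2 DMSO, Gata6 differed by 0.64 (limma, adjusted p = 0.146), a step called only with a pseudocount of 0.1 among 13 alternatives (adjusted p = 0.0413). For Gata6, with DMSO the day 2 to day 4 difference was -0.44 (limma, adjusted p = 0.510), and with dTAG13 it was 0.73 (adjusted p = 0.181), from 14 reads in all at day 2 DMSO and 8 at day 4 DMSO. Gata6 in the vector lines went from 4, 0 and 2 reads at day 2 to 10, 17 and 20 reads at day 4, a rise of 1.496 (limma with no filter, adjusted p = 0.00442). The tables were not compared by a test. Neither Hand1 nor Gata6 was called from day 4 to day 6, with -0.41 and -0.23 on log2 (adjusted p = 0.581 and 0.741).

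With Tex10 overexpressed, Hand1 was lower than in the empty vector at day 4 and day 6. At day 4 Hand1 was at 15.9 CPM in the empty vector and at 3.68 and 2.80 CPM in the clones (104, 22 and 15 reads), and at day 6 at 9.34, 2.60 and 2.48 CPM (62, 16 and 17 reads). Both clones were below the empty vector, with differences of -1.86 and -2.16 on log2 at day 4 and of -1.52 and -1.57 at day 6. These steps have no test within a stage, since there is 1 empty-vector library in each. A drop of at least 1 in both clones was seen for 0.944% of genes at day 4 and 0.524% at day 6. In EpiLCs and at day 2 the clones differed from the empty vector by -0.00, 0.39, -0.57 and 0.26 on log2, from 8 reads or fewer in each library.

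Over the 4 stages together, Hand1 differed by -0.88 on log2 with an SE of 0.269 (limma with stage as a covariate, adjusted p = 0.0364) and was lower in 6 of 8 clone libraries. In this comparison 8.76% of 15255 tested genes were called, and 4.22% of tested genes were called lower. The fit treats 4 libraries of 1 empty-vector line and of each of 2 clones as independent, so its p rests on repeated libraries of those lines. The call rested on a few libraries: without clone 1 the adjusted p was 0.251, without clone 2 0.0691, without day 4 0.413 and without day 6 0.258. It was also lost with a pseudocount of 0.1 (0.133), with no filter (0.209) and with no variance trend (0.181). Without the EpiLC stage it was kept (-1.24, adjusted p = 0.00375), as it was by edgeR on recovered reads (-1.57, adjusted p = 0.00285). The authors' deposited table gave -2.29 (FDR 4.2e-05) at day 4 and -1.87 (FDR 0.0129) at day 6, each from the 2 clones against 1 empty-vector library, so that library alone carries the control in them.

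Eomes and Gata6 did not pass against the empty vector. Eomes was lower in 6 of 8 clone libraries, with a difference of -0.25 (limma, SE 0.125, adjusted p = 0.240). Gata6 was lower in 3 of 8 and gave 0.20 (limma, SE 0.232, adjusted p = 0.675). At day 4 Gata6 was at 1.53 CPM in the empty vector and 2.84 and 3.73 in the clones, and at day 6 at 1.51, 2.12 and 2.62. Of all tested genes, 5.59% had both clones below the vector at every stage, and none of these 3 members did.

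**Figure D3:**
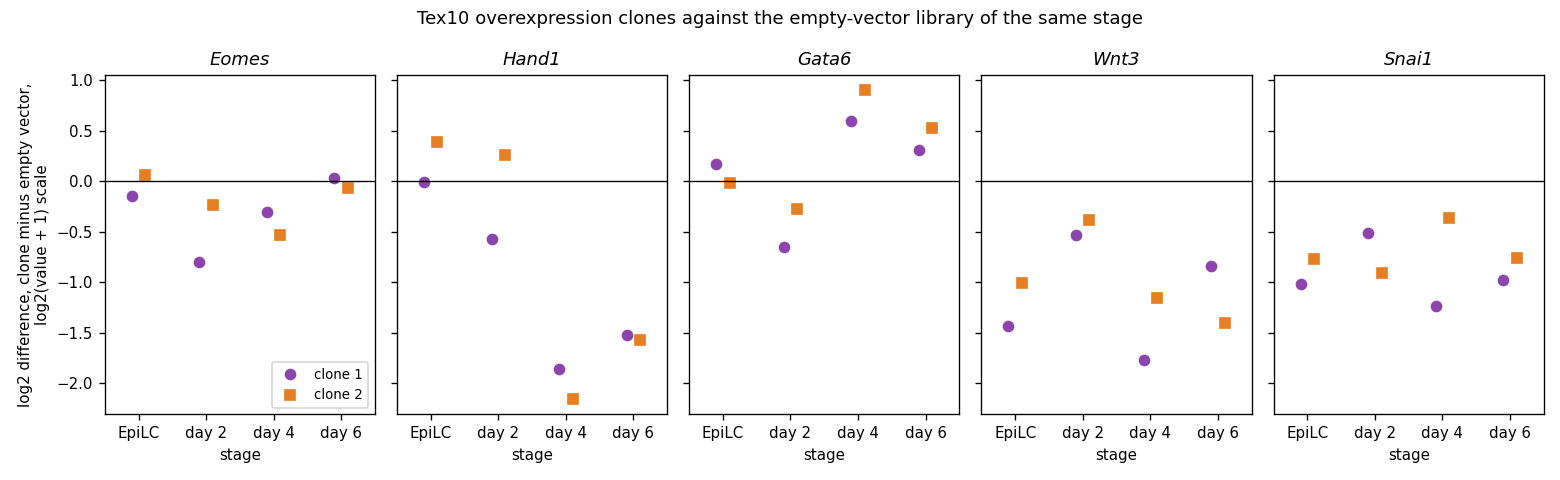
Difference of each overexpression clone from the empty vector of its stage, on log2(value + 1), for Eomes, Hand1, Gata6, Wnt3 and Snai1 at EpiLC, day 2, day 4 and day 6, with a point per clone and no test within a stage. Hand1 falls below 0 in both clones at day 4 and day 6, and Wnt3 and Snai1 lie below 0 in all 8 clone libraries.

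The remaining streak members were scarce. Mixl1, a homeobox factor of nascent mesoderm and endoderm, had 9 and 21 reads in dTAG13-table EpiLCs, then 5 and 4 at day 2 and 6 and 4 at day 4 with DMSO. With dTAG13 it had 2 and 1 reads at each day, below DMSO in every case but by few reads. Gsc, a homeobox factor of the organizer, had 7 and 1 reads at day 4 DMSO and 0 and 0 with dTAG13. Neither difference passed in edgeR on reads without a filter (adjusted p = 0.677 and 0.218), where 16.6% of genes were called at day 4.

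In the vector lines Mixl1 was lower than the empty vector in 7 of 8 clone libraries. It had 12, 11 and 17 reads in EpiLCs (empty vector, clone 1, clone 2), 8, 3 and 5 at day 2, 9, 3 and 0 at day 4 and 5, 2 and 0 at day 6. No step in time passed (limma with no filter, adjusted p = 0.0705, 0.746 and 0.811). The difference from the vector did not pass (edgeR on reads without a filter, adjusted p = 0.386). Gsc split evenly, lower in 4 of 8 clone libraries, with 5 reads in the vector and 10 and 16 in the clones at day 6.

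The other mesoderm members, Mesp1 and Kdr, had 16 reads or fewer in each library. Mesp1, which marks the earliest cardiac and paraxial mesoderm, had 0 reads in both EpiLC libraries, 0 and 0 in day 4 DMSO and 7 and 2 with dTAG13 at day 4. edgeR on reads without a filter did not call this (adjusted p = 0.104), whereas the authors' deposited table lists a log2 change of 5.42 with an FDR of 0.0377. With 9 reads in all against 0, its size is set by the count added to avoid 0. It had 3 reads or fewer in each library of the vector lines, and was lower than the empty vector in 7 of 8 clone libraries without passing (limma with no filter, -0.20, adjusted p = 0.261). From EpiLCs to day 2 in those lines limma with no filter gave 0.36 (adjusted p = 0.0380), with 23.7% of genes called, and edgeR did not call it (adjusted p = 0.497).

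Kdr encodes VEGF receptor 2, a marker of haemato-endothelial mesoderm. It had 16 and 12 reads in EpiLCs and 2 and 1 at day 2 DMSO. Limma with no filter did not call this difference (-1.16, adjusted p = 0.0707), while edgeR on reads without a filter, added after the data were seen, did (-2.96, adjusted p = 0.0199), with 10.9% of genes called. Day 2 dTAG13 libraries had 7 and 3 reads, and at day 4 DMSO and dTAG13 overlapped, with 0 and 8 against 5 and 4. Kdr was lower than the empty vector in 8 of 8 clone libraries, as were 3.52% of the 28612 genes with a read in any library of that table. At day 6 clone 2 had 2 reads, as the vector did, and was lower in CPM alone (0.291 against 0.301). Kdr had 10 reads or fewer in each vector library and did not pass (limma with no filter, adjusted p = 0.0743, and edgeR, adjusted p = 0.326).

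Of the endoderm members, Foxa2, the pioneer factor of endoderm and node, had 4 reads or fewer in every dTAG13-table library. The vector lines had 8, 23 and 11 reads in EpiLCs and 1, 2 and 3 at day 2. That fall was called by edgeR on reads without a filter (-2.60, adjusted p = 0.00850), with 24.2% of genes called, and by limma with no filter (-1.16, adjusted p = 0.00352). Against the empty vector Foxa2 was higher in 6 of 8 clone libraries and did not pass (limma with no filter, 0.26, adjusted p = 0.651). Sox17, an HMG-box factor of endoderm, is also used in germ cell precursors. It had 8 reads or fewer in the dTAG13 table, and went from 2, 0 and 0 reads at day 2 to 10, 14 and 3 at day 4 in the vector lines. This rise was called by edgeR on reads without a filter (3.73, adjusted p = 0.00633), with 11.5% of genes called, and by limma with no filter (1.12, adjusted p = 0.0355), and every line was higher at day 4 than at day 2. Sox17 was lower than the empty vector in 6 of 8 clone libraries and did not pass (limma with no filter, -0.14, adjusted p = 0.810).

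From day 4 to day 6 no member was called by limma with no filter or by edgeR on reads without a filter. Gsc came nearest (0.99, limma, adjusted p = 0.0619), and at an unadjusted p under 0.05 limma passed Gsc and Kdr and edgeR passed Gsc.

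T, the T-box factor Brachyury of nascent mesoderm, was used as a check of a passing streak stage. It had 5 reads or fewer in each dTAG13-table library. In the empty-vector line it had 5 reads in EpiLCs, 4 at day 2, 43 at day 4 and 5 at day 6, a single high library. The clones had 5 and 8 reads at day 4. T passed the filter through that single day 4 empty-vector library, so a step into and out of day 4 was built into its test, and no call is read from it. T was lower than the empty vector in 8 of 8 clone libraries, most of them by a few reads. So were 5.59% of tested genes and 3.52% of the genes with a read. At day 6 clone 2 had 5 reads, as the vector did, and was lower in CPM alone (0.728 against 0.753). No stage in the dTAG13 table showed a rise of T, Mixl1 or Mesp1 with DMSO beyond a few reads.

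Lists of neighbouring programmes, 64 genes in all, were read beside the members, 33 of them tested in the dTAG13 table. At day 2, 17 were called, 11 higher and 6 lower, with a median of 0.39 on log2 against -0.09 over all genes, of which 13.7% were called higher and 19.9% lower. At day 4, 18 were called, 14 higher and 4 lower, with a median of 0.65 against -0.13, and 15.8% higher and 26.0% lower over all genes. Genes that are tested because they are high with dTAG13 enter these counts, as for Gata6 above. The plot of dTAG13 differences sets the tested members beside the tested genes of the lists.

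**Figure D4:**
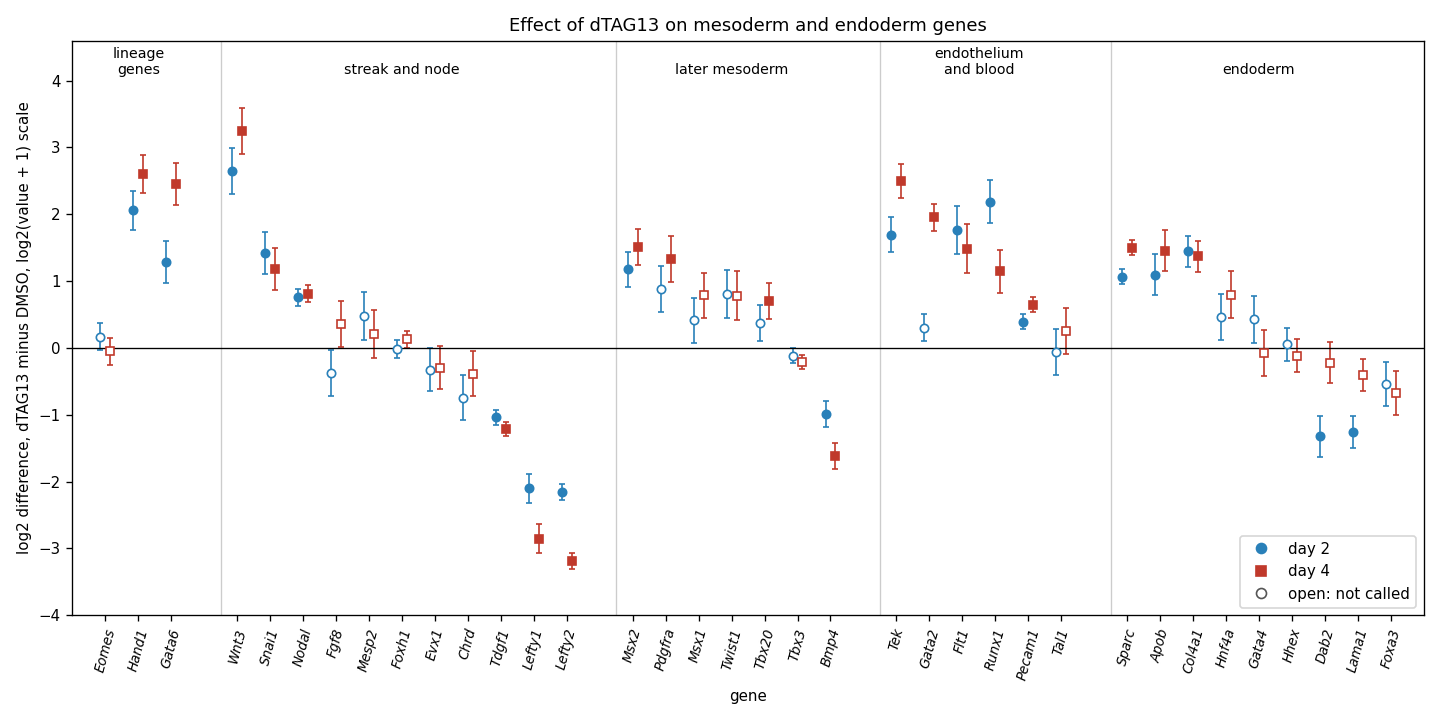
Differences between dTAG13 and DMSO on log2(value + 1) with SE bars, day 2 in blue and day 4 in red. The tested members and all tested companion genes are shown, and open symbols did not pass an adjusted p of 0.05 (limma). Hand1, Gata6 and Wnt3 lie above 0 on both days, Lefty1 and Lefty2 below, and Eomes near 0.

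Streak and node regulators moved both ways. Of 18 genes 11 were tested, with 3 higher and 3 lower at each day. Wnt3, the ligand that starts the streak, was at 1.01 and 2.99 CPM with DMSO at day 2 and at 13.7 and 20.5 with dTAG13. Both dTAG13 libraries were above both controls, by 8.55 times and 2.65 on log2 (limma, adjusted p = 3.95e-06). At day 4 it had 0 and 1 reads with DMSO and 62 and 55 with dTAG13 (3.24 on log2, limma, adjusted p = 1.25e-07).

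The NODAL antagonists Lefty1 and Lefty2 fell. Lefty2 was at 266 and 222 CPM with DMSO at day 2 and at 53.2 and 54.0 with dTAG13, 4.55 times lower and -2.16 on log2 (limma, adjusted p = 3.71e-11). At day 4 it was at 212 and 188 CPM against 23.6 and 18.8, 9.45 times lower (-3.19, limma, adjusted p = 1.65e-14). Both days were without overlap. Lefty1 fell on both days, with differences of -2.10 and -2.85 (limma, adjusted p = 1.78e-07 and 8.76e-10). The dTAG13 difference of Lefty2 was larger at day 4 than at day 2 (-1.03, limma, adjusted p = 0.00433), a call lost without replicate 2 of day 4 dTAG13 (-0.87, adjusted p = 0.0520).

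Of 12 genes of endothelium and blood 6 were tested, with 4 called higher at day 2 and 5 at day 4, and none called lower, where 13.7% and 15.8% of all genes were called higher. Runx1 and Flt1 passed the filter through their dTAG13 libraries, being at 0.13 to 1.39 CPM in EpiLCs and with DMSO, and were called at day 2 by limma with no filter too. The medians of the 6 tested genes were 1.044 and 1.317 on log2 at day 2 and day 4. Runx1 and Flt1 enter these medians and the counts above, which are therefore partly set by the filter. Tal1 did not pass on either day (-0.06 and 0.25, limma, adjusted p = 0.911 and 0.591), and Gata2 did not pass at day 2 (0.30, adjusted p = 0.262). Runx1, a regulator of blood formation, was at 0.63 and 1.36 CPM with DMSO at day 2 and 6.53 and 9.63 with dTAG13 (2.19, limma, adjusted p = 1.85e-05). Flt1, a VEGF receptor, rose by 1.77 at day 2 (limma, adjusted p = 0.000677). Tek, the angiopoietin receptor, was at 2.36 and 3.68 CPM with DMSO at day 4 and 20.2 and 22.7 with dTAG13 (2.50, limma, adjusted p = 8.18e-08). Gata2, a blood and trophoblast factor, was at 7.41 and 7.97 against 32.6 and 32.7 CPM at day 4 (1.95, limma, adjusted p = 8.07e-08), and the difference between the days was 1.65 (adjusted p = 0.00492). Limma with no variance trend called no gene for the difference between the days (Gata2 0.0596, Lefty2 0.140), and Lefty2 was not called with no filter either (0.119).

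The lists of later mesoderm and endoderm held calls in both directions at day 2, to be read against the 13.7% and 15.8% of all genes called higher and the 19.9% and 26.0% called lower at day 2 and day 4. In later mesoderm 7 of 16 genes were tested, with 1 higher and 1 lower at day 2 and 3 higher and 1 lower at day 4. The fall was Bmp4, the ligand of germ cell induction, at 36.1 and 37.7 CPM with DMSO at day 4 and 12.03 and 10.65 with dTAG13 (-1.62, limma, adjusted p = 8.37e-07). In endoderm 9 of 18 were tested, with 3 higher and 2 lower at day 2 and 3 higher at day 4. The larger fall at day 2 was Dab2, an endocytic adaptor of visceral endoderm (-1.32, limma, adjusted p = 0.00197).

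The summed level of trophoblast markers was also higher with dTAG13. It was 21.9 to 25.8 CPM with DMSO and 52.8 to 62.7 with dTAG13 at day 2, and 15.7 to 16.8 against 47.2 to 72.8 at day 4. Of 8 markers 6 were tested, with 4 called higher at day 2 and 6 at day 4, where 13.7% and 15.8% of all genes were. Cdx2 and Esx1 did not pass at day 2 (limma, adjusted p = 0.0574 and 0.505). Markers that are tested because they are high with dTAG13 may enter these counts. Elf5, a defining factor of trophoblast stem cells, had 5 reads or fewer in every library, and Tpbpa, of spongiotrophoblast, had 1 read or 0. Their part in the result was not tested. The counts that follow are to be read against the shares over all genes. Those were 13.7% called higher and 19.9% lower at day 2, and 15.8% and 26.0% at day 4. Of 10 germ cell markers, 1 was called higher and 4 lower at day 2, and 2 higher and 3 lower at day 4. Of 4 tested neural markers, 3 were called lower at day 2 and 1 at day 4, while Nes, a neural and progenitor filament gene, was called higher on both days (2.10 and 2.95). Of the fibroblast markers 1 of 4, Col1a1, was higher on each day.

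With Tex10 overexpressed, 45 of the 64 companion genes were tested and 7 were called, each of them lower: Wnt3, Snai1, Pdgfra, Hoxb1, Flt1, Dab2 and Col4a1. Over all tested genes 8.76% were called and 4.22% called lower, and the median over the 45 was -0.07 against 0.0056 over all genes. Hoxb1 passed the filter through the empty-vector libraries, since the 8 clone libraries averaged 0.653 CPM. With no filter Wnt3 alone of the 7 kept its call (limma, adjusted p = 0.0330), and the others were at 0.0620 to 0.225. Calls were also made in other lineages: 3 of 5 tested neural markers were lower (list median -0.43), and 3 of 10 germ cell markers higher (0.19). Wnt3 was at 7.36, 2.09 and 3.16 CPM in EpiLCs, 4.45, 2.77 and 3.18 at day 2, 5.82, 1.00 and 2.05 at day 4 and 1.66, 0.49 and 0 at day 6 (empty vector, clone 1, clone 2). Both clones were below the vector at every stage (-1.07, limma, adjusted p = 0.0016). Snai1, a repressor of epithelial genes at the streak, was lower in all 8 clone libraries too (-0.82, adjusted p = 0.0063), as was Pdgfra, a growth factor receptor of mesoderm cells (-0.77, adjusted p = 0.0299). Snai1 lost its call without clone 1 (adjusted p = 0.0833), and Pdgfra without either clone (0.197 and 0.0794) and without any one stage (0.0545 to 0.151). Without clone 1 or without clone 2 the companion genes called fell to between 1 and 3. The summed trophoblast markers stood at 23.8 CPM in the day 4 empty vector against 13.3 to 13.9 in the clones, and at 16.4 against 17.3 to 17.9 at day 6; their part in the fall of Hand1 was not tested.

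Hand1 was called higher with dTAG13 on both days and lower with Tex10 overexpressed, in tables that share no library. The overexpression call of Hand1 held in 6 of 13 alternatives, and was lost without either clone and with no filter. Of the 7 companion genes called lower with overexpression, Wnt3, Snai1, Flt1 and Col4a1, a basement membrane collagen, were called higher with dTAG13 on both days. Flt1 was tested there through its dTAG13 libraries, so its call is partly built in. With no filter Snai1, Flt1 and Col4a1 lost the overexpression call (limma, adjusted p = 0.0620, 0.225 and 0.0637). Over all genes, 129 of the 612 called lower with overexpression and tested with dTAG13 (21.1%) were called higher on both days. Pdgfra was called higher at day 4 alone (1.33, limma, adjusted p = 0.00361), Dab2 was called lower at day 2, and Hoxb1 was not tested in the dTAG13 table. These pairs were read off after their values were seen. Hand1 lies at chr11:57828705-57832818 on the - strand of GRCm38. The 10 tested genes around it were taken as 5 on each side in order of start position. They differed with dTAG13 by -0.44 to 0.45 on log2 at day 2 (1 called, lower). At day 4 they differed by -0.74 to 0.36 (3 called, lower), and none was called higher. In the overexpression table those neighbours spanned -0.26 to 0.21 and none was called by limma.

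By likeness of pattern, measured as the lower of 2 Pearson correlations over the 10 and the 12 libraries among 14387 genes, Eomes was nearest to Mkrn1 (0.929), Pik3r1 (0.897) and Gab1 (0.896). Hand1 was nearest to Fosl2 (0.923), Zfp703 (0.920) and Rb1 (0.902), and Gata6 to Lmna (0.942), Pfkfb4 (0.926) and Calcoco1 (0.920). The points share stage, library and depth, so these values describe the libraries and nothing more.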

How the data were processed

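Values were those the authors deposited as a TMM-scaled signal per gene (CPM over a TMM-scaled library size, per the file headers). Alignment and counting tools were Bowtie2 2.3.4.3, SAMtools 1.9, HTSeq 0.11.2 and edgeR 3.26.8 with mm10, per the submitters' processing notes. The log2 fold changes and p-values of the authors' deposited tables were used only where named. RNA was taken with Trizol; libraries were made with NuGEN Ovation (dTAG13) and Tecan Universal Plus (overexpression) kits, per the labels. Values were whole multiples, within 0.02 of a step, of their library's step (0.0996 to 0.187), and reads are values divided by it. In day 4 DMSO replicate 2 the step is near 0.1, but values were not rounded to 0.1 (Eomes 12.34716 CPM at 124 reads).

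limma 3.58.1 (R 4.3.3) was run on log2(value + 1) for genes averaging 1 or more in a table, all its libraries entering the fit, with Benjamini-Hochberg adjustment over 16605 and 15255 genes and a threshold of 0.05. edgeR 4.0.16 and DESeq2 1.42.0 on recovered reads were alternatives, and edgeR without a filter was added after the data were seen. The rule was to name all 9 members in every comparison, but scarce members not called in a step are given there by reads, by a range or by their joint count alone; of the companion lists, up to 3 called genes per direction with the largest change and groups that do not overlap, with others named after their values were seen. Members and lists were chosen with earlier results of these data known. Chi-square per gene between replicates was 1.83 to 15.07, the highest in the day 4 DMSO pair. Positions are from GENCODE M21. Replicate numbers did not pair the libraries: over 10 pairs of groups, deviations correlated by -0.128 to 0.118, with 1 over 0.1. Scripts were tested on simulated data.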

Additional observations from a re-analysis of the deposited data

Results flagged for a closer look

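Gata6 differed in sign between the stages of overexpression. At day 2 clone 1 was -0.66 and clone 2 -0.27 below the empty vector on log2(value + 1), from 4 reads in the vector and 0 and 2 in the clones. At day 4 the clones were 0.60 and 0.90 above it, and at day 6 0.31 and 0.53 above it, from 10 vector reads at each day. The difference between the stages was not tested, and so few reads limit it.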

How the results depend on the processing

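Of the single-gene values, 690 kept direction and call under the alternatives, 14 gained a call, 24 lost one and 12 changed sign. For the day 4 minus day 2 difference of the dTAG13 effect, 208 genes were called; limma with no filter called 16, limma with no variance trend 0 (1898 at an unadjusted p under 0.05; edgeR 248), edgeR on recovered reads with no filter 380, and leaving out 1 library gave 44 to 366. From day 2 to day 4 with DMSO (916), no filter gave 341, no trend 445, only the groups compared 551, and leaving out a library 425 to 1104. With dTAG13 (1271) these were 832, 613, 1756 and 525 to 651. Overexpression (1337) gave 642 with no filter, 431 with no trend, 772, 673 and 789 without the day 2, day 4 and day 6 stage, and 413 to 425 without a clone. In the vector lines, day 2 to day 4 (3509) gave 2238 with no trend and 1564 to 4080 without a line; day 4 to day 6 (1049) gave 476 with no filter, 276 with no trend, 498 with no replicate block and 255 to 1427 without a line. Leaving out a library gave 3603 to 4208 calls for dTAG13 at day 2 (5577) and 2496 to 3098 for EpiLC to day 2 DMSO (4347).

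Members called with dTAG13 went from 2 to 1 on each day with a mean of at least 5, which removed Gata6 from the test. EpiLC to day 2 DMSO went from 1 to 2 with a pseudocount of 0.1 (Gata6 added) and with edgeR without a filter (Kdr added). Day 2 to day 4 DMSO went from 1 to 2 (Hand1 added) with a pseudocount of 0.1, median-ratio scaling, edgeR, DESeq2, edgeR without a filter and the replicate block, and 1 to 2 leaving out a library; with dTAG13 that range was 0 to 1. Overexpression went from 1 to 0 with a pseudocount of 0.1, no filter, a mean of at least 5, no trend, without the day 4 or day 6 stage, and 0 to 0 without either clone. EpiLC to day 2 in the vector lines went from 1 to 3 with no filter and 2 with edgeR without a filter, and day 2 to day 4 from 3 to 1 with a mean of at least 5.

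None of the values that changed sign was called. Eomes with dTAG13 at day 4 (-0.05) was 0.071 under median-ratio scaling, 0.075 with edgeR (0.021 without a filter), 0.080 with DESeq2, and -0.14 to 0.042 leaving out a library. Leaving out a library, Hand1 from EpiLC to day 2 DMSO was -0.44 to 0.21 and Tex10 from day 2 to day 4 DMSO -0.075 to 0.015. In the vector lines from EpiLC to day 2, Gata6 was -0.090 to 0.32 and Hand1 -0.25 to 0.037 without a line. The causes were not tested. The replicate block changed no other member's call. Depth limits the 6 scarce members.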
